A study of Mus musculus with 10 samples.

Results

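The variable (V) segments of the T cell receptor alpha chain (Trav) and beta chain (Trbv) were followed in regulatory T cells (Tregs) from tumor and lymph node (LN). Members were all gene rows whose Ensembl identifier maps to a Trav or Trbv symbol of the class T cell receptor V gene. This gave 116 of the 21556 rows, 94 Trav and 22 Trbv. The Trav members lie on chromosome 14, from 52427928 to 53876752 in GRCm38, and the Trbv members on chromosome 6, from 40891229 to 41558452. GENCODE M21, a gene annotation of that build, lists 108 Trav genes of this class, of which 14 were not analysed here, and the same 22 Trbv genes.

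The mice carried a lymphangiogenic melanoma, a tumor of an injected cell line that induces lymphatic vessels, and were 10 weeks old. All carried the floxed MHC class II allele of the genotype MHCIIfl/fl. MHCII-deleted mice (MHCIIdeltaProx-1) also carried Prox1-Cre, which deletes MHC class II in cells with an active Prox1 promoter, among them lymphatic endothelial cells. Control mice were Cre-negative. Tregs were sorted by red fluorescence (RFP) and measured by RNA sequencing, giving 2 libraries from tumors of MHCII-deleted mice, 3 from tumors of control mice, 2 from LN of MHCII-deleted mice and 3 from LN of control mice. The labels do not say whether the libraries of a group came from separate animals or from pools, so the tests measure the spread between these libraries, which may be partly technical.

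A developing T cell joins a V segment to a J segment (with a D segment between them in the beta chain), and the joined exon is spliced to a constant exon, Trac for alpha and Trbc1 or Trbc2 for beta. Each T cell clone keeps the V segments it has joined, so in RNA from many cells the share of each segment reflects how many cells use it and how much receptor RNA they hold. The receptor recognises peptides on MHC molecules, and most Tregs recognise them on MHC class II. In a bulk sample, fewer cells of a kind and less RNA per cell cannot be told apart.

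Library totals were 28539329 to 35736175 counts, with 12825 to 14703 genes detected. The Trav members together took 2198 to 10505 counts per library and the Trbv members 9812 to 49272. Both minima were in library 1 of the MHCII-deleted tumors. Foxp3, the lineage factor of Tregs, was at 359 and 349 CPM (library counts scaled to a common total) in tumors of MHCII-deleted mice, 603 to 751 in tumors of control mice and 587 to 775 in LN. In tumors of MHCII-deleted against control mice it fell by 1.09 ± 0.12 (log2 ± SE; edgeR quasi-likelihood, adjusted p = 0.000296). Melanoma markers (Tyr, Tyrp1, Dct, Pmel and Mlana) summed to 13290 to 16620 CPM in tumors of MHCII-deleted mice, 3063 to 6147 in tumors of control mice and 5.42 to 13.6 in LN. Pan-T cell markers, 12 genes of T cells in general, summed to 5450 to 6386 CPM in tumors of MHCII-deleted mice, 11859 to 12202 in tumors of control mice and 12441 to 13702 in LN. B cell markers summed to 4.46 to 15.9 CPM in tumor and 20.99 to 31.2 in LN, and myeloid markers to 7.35 to 26.6 in tumor and 19.9 to 46.8 in LN. Markers of stroma and endothelium summed to 236 and 455 CPM in tumors of MHCII-deleted mice, 256, 2399 and 1537 in tumors of control mice and 188 to 229 in LN. Each V segment was therefore described mainly by its usage, the share of the summed counts of its own family in a library, which does not move with the amount of T cell RNA. Intervals and floors given here cover counting error only, because amplified reads carried no molecular identifiers. Library pairs of the same group differed by more than counting noise in both families (chi-square per degree of freedom 4.67 or more). Counting noise leaves out the spread from amplification, so this cannot show whether any libraries repeat the same RNA. All were kept as separate libraries.

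The Trbv segments could be counted apart from each other, whereas many Trav segments could not. The mouse Trav locus holds repeated blocks, and copies in those blocks carry a d or n in their symbol. Reads were 50 bases long, so each 50-base window of a segment was compared with all other annotated transcripts. In Trbv, 19 of 22 segments had all windows unique and the lowest share was 98.8%. In Trav, 60 of 94 segments had under 50% unique windows and 34 had none. A total of 29 Trav segments had 0 counts in every library. All 29 carried a copy letter (16 of 30 with d, 13 of 26 with n), against 0 of 38 segments without a letter, and 27 of the 29 had no unique window. Of the 65 Trav segments with a count in some library, 53 had a count in all 10. The sources used here do not state how reads that map to several places were counted.

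**Figure D1:**
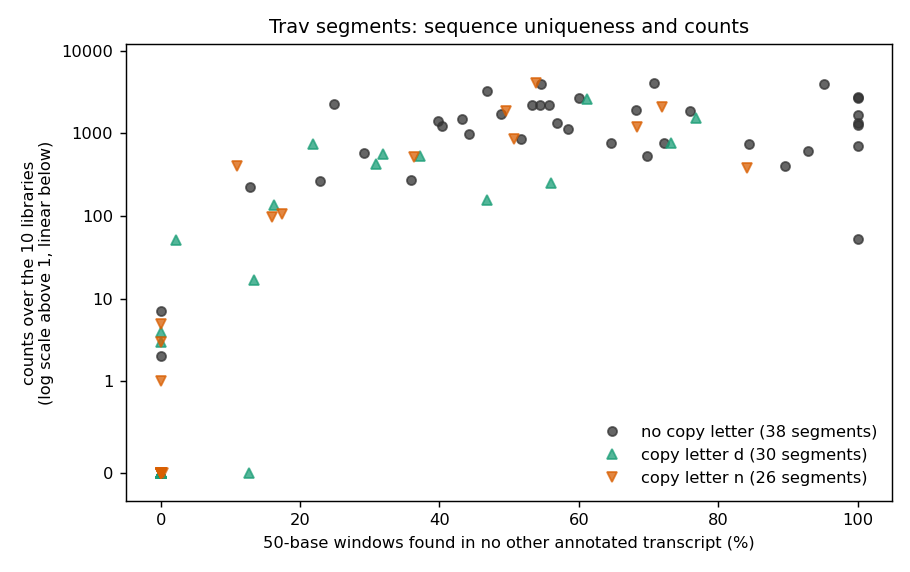
Each point is a Trav segment, with the share of its 50-base windows found in no other annotated transcript (x axis, %) and its counts summed over the 10 libraries (y axis, log scale above 1 and linear below), by copy letter. The 29 segments at 0 lie at the left edge, at 0% to 12.7% unique windows, and the 7 segments with all windows unique all have counts.

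Trav14-2 and Trav12-2 and their copies show the scale of this likeness. Trav14-2 had 2199 counts over all libraries, while its d and n copies had 0, and each copy matched it at 97.8% of 364 bases. Trav12-2 had 4068 counts, its d copy 0 and its n copy 5, with 96.7% identity over 338 bases. In the 80-base stretches below, from GENCODE M21 transcripts on the plus strand of chromosome 14 (GRCm38), capitals mark the bases at which Trav14-2 or Trav12-2 differs from its copies, and the bases between them are shared by all 3 segments. The Trav14-2 stretch is at chr14:53640987-53641066 and the Trav12-2 stretch at chr14:53616741-53616820.
Trav14-2: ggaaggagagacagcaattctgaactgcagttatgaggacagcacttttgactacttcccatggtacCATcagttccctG
Trav14d-2: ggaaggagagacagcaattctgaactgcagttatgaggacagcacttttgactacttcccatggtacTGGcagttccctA
Trav14n-2: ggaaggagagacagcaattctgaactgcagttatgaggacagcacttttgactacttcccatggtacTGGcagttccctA
Trav12-2: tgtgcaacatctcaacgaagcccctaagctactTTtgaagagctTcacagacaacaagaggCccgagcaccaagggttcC
Trav12d-2: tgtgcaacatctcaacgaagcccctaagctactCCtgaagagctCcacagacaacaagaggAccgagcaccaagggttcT
Trav12n-2: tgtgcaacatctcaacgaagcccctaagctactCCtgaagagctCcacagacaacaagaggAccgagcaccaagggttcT
The value of a Trav segment with a copy letter, or with such copies, is therefore uncertain between the copies, and the Trbv values carry no such doubt, apart from Trbv4 and Trbv5, which overlap the noncoding gene 5830405F06Rik.

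Usage of the beta segments was led by Trbv13-2 and Trbv3 in all 5 LN libraries. Trbv16 came next in LN of MHCII-deleted mice, at 7.82% and 7.86%, and Trbv1 in LN of control mice, at 7.80%, 7.44% and 7.92%. Trbv13-2 (chromosome 6, 41121396 to 41121832) took 12.7% and 11.3% of Trbv counts in tumors of MHCII-deleted mice and 12.9%, 15.1% and 16.3% in tumors of control mice. In LN it took 12.3% and 12.4% in MHCII-deleted mice and 14.0%, 12.6% and 14.3% in control mice. It was the segment with the highest share in 9 of the 10 libraries. Trbv3 averaged 9.02% ± 1.04 (SD, n = 2) and 9.85% ± 2.02 (SD, n = 3) in tumors of MHCII-deleted and control mice, against 10.1% ± 0.113 (SD, n = 2) and 10.4% ± 0.334 (SD, n = 3) in LN of the same genotypes. By the mean share over all 10 libraries, the order of the 4 leading segments, Trbv13-2, Trbv3, Trbv1 and Trbv16, was the same per base of exon, while Trbv19, at rank 5 by share, was at rank 12 per base. Trbv13-1, Trbv12-2 and Trbv2 followed by that mean, at 5.95%, 5.87% and 5.48%. In LN alone Trbv2 (4.58% to 5.40%) was below Trbv5 (5.80% to 6.57%) and Trbv13-3 (5.41% to 6.04%). At the other end Trbv21 took at most 0.0825% in any library.

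The ends of the V segments, which encode the start of the third complementarity-determining region, the loop that lies over the peptide, show how the beta segments with the results below differ. These are the last 60 bases of each exon from GENCODE M21, on the plus strand of chromosome 6 (GRCm38), with the codon of the conserved cysteine in capitals. Trbv13-2 ends at 41121832 and Trbv13-3 at 41130585, Trbv1 at 40891885, Trbv26 at 41227993 and Trbv12-1 at 41114067.
Trbv13-2: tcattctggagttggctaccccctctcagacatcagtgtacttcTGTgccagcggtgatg
Trbv13-3: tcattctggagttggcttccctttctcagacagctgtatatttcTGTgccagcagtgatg
Trbv1: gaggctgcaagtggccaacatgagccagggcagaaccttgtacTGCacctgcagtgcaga
Trbv26: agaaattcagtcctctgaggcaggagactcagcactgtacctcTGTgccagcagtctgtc
Trbv12-1: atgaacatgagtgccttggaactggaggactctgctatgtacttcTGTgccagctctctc

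In tumors the beta segment with the greatest excess over LN differed between libraries. In library 1 of the MHCII-deleted tumors Trbv15 took 11.3% of Trbv counts (Wilson 95% interval 10.7 to 11.9%), whereas the highest LN library had 4.94%. In library 2 of the MHCII-deleted tumors Trbv19 took 11.7% (interval 11.1 to 12.2%), whereas LN libraries reached 6.39%. Among tumors of control mice, Trbv20 took 7.14% in library 1 (at most 3.92% in LN). Trbv5 took 9.46% in library 2 (at most 6.57% in LN), and Trbv1 took 12.2% in library 3 (at most 7.92% in LN). These segments were picked after their values were seen, as those with the greatest excess over the LN range in each library, and carry no test. Other excesses were shared. Trbv19 and Trbv2 each lay above every LN library in 4 of 5 tumor libraries, Trbv19 at 6.46% to 11.7% against at most 6.39% in LN, and Trbv2 at 5.69% to 7.02% against at most 5.40%. Trbv16 did so in 3, at 11.2% and 9.45% in the MHCII-deleted tumors and 9.06% in 1 control tumor, against at most 7.86% in LN. Trbv26 did so in 3 and Trbv1 in all 3 control tumors. Between 5 and 9 of the 22 segments lay above the range of the 5 LN libraries in each tumor library and 8 to 11 below it. Each LN library had 3 to 6 segments above the range of the other 4 and 3 to 9 below it, so these counts overlap with those of tumor. The summed excess above that range was 12.9 and 9.54 percentage points in tumors of MHCII-deleted mice and 6.40, 10.2 and 8.04 in tumors of control mice. Each LN library exceeded the range of the other 4 by 0.398 to 2.06 percentage points.

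**Figure D2:**
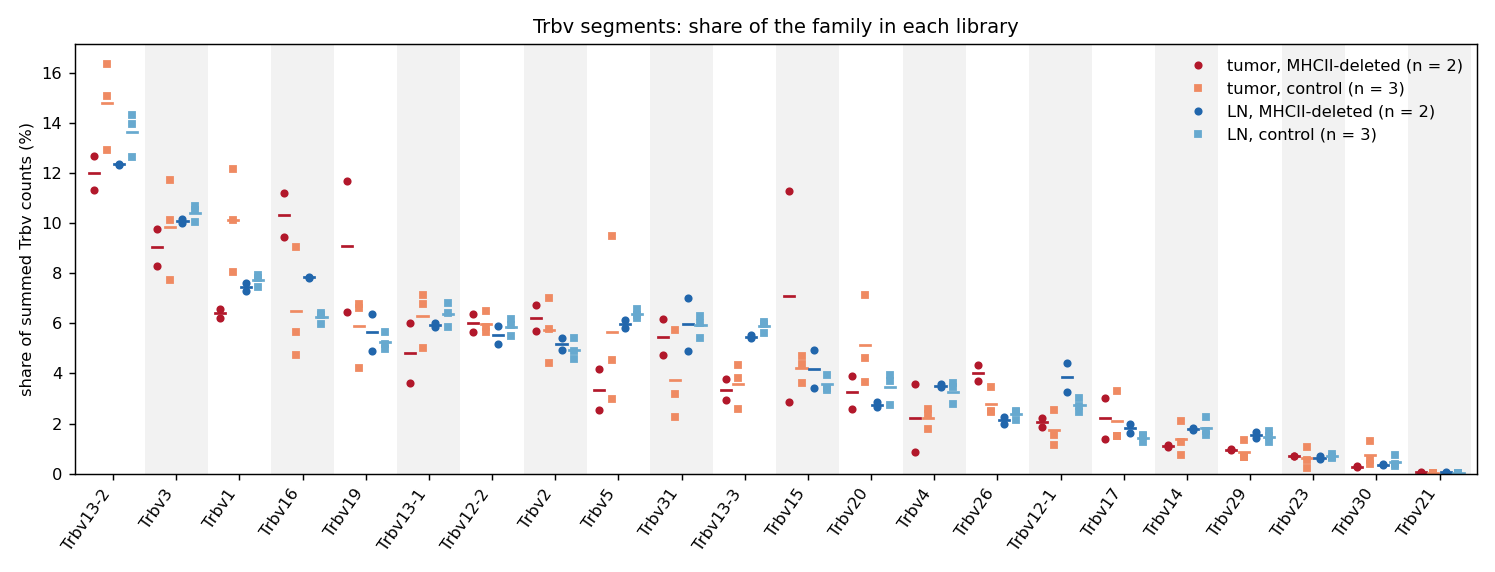
Share of summed Trbv counts (y axis, %) of the 22 Trbv segments in order of their mean share, with a point for each library and a bar for the group mean. The LN points of a segment lie close together, while single tumor libraries stand off, as for Trbv15 at 11.3%, Trbv19 at 11.7% and Trbv1 at 12.2%.

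Usage of the alpha segments was spread over more segments, and tumor libraries again differed from each other. Trav14n-3 (chromosome 14, 53370077 to 53370575) led by mean share and Trav13-1 (53545014 to 53545525) came next. Per base of exon Trav13-1 was ahead. Trav14n-3 took 8.28% and 6.71% of Trav counts in tumors of MHCII-deleted mice and 6.53%, 10.1% and 4.20% in tumors of control mice. In LN it took 4.33% and 4.54% in MHCII-deleted mice and 3.72%, 5.05% and 3.64% in control mice. It was thus above the highest LN library in 4 of 5 tumor libraries, a description that missed the test in both genotypes (edgeR quasi-likelihood, adjusted p = 0.134 in MHCII-deleted mice and 0.0823 in control mice). Trav13-1 took 9.19% and 3.98% in tumors of MHCII-deleted mice and 8.54%, 5.99% and 5.19% in tumors of control mice, against 3.47% to 5.39% in LN. The 2 exons end as follows (last 60 bases, plus strand of chromosome 14, conserved cysteine codon in capitals, from GENCODE M21).
Trav14n-3: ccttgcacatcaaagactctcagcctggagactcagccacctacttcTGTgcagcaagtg
Trav13-1: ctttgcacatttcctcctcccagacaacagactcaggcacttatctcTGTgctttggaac

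The other leading alpha segments were Trav12-2, Trav14-1, Trav4-4-dv10, Trav21-dv12, Trav17 and Trav3-3. Trav14-1, which has 95.1% unique windows, reached 10.2% in library 2 of the MHCII-deleted tumors (Wilson 95% interval 9.38 to 11.1%) and was at 5.05% in library 1. It was at 3.04% to 4.68% in tumors of control mice and at 3.55% to 6.40% in LN. Trav12-2 reached 9.23% in library 2 of the control tumors, against 5.67% in the highest LN library. Trav4-4-dv10 reached 6.91% in the same tumor library, against 4.51%. Trav17 lay at 2.27% to 3.62% in tumor and 3.24% to 5.79% in LN, and Trav21-dv12 at 3.41% to 4.48% in tumor and 2.96% to 4.50% in LN. Trav3-3 lay at 1.41% to 3.47% in tumor, below its range of 3.57% to 4.68% in LN. Trav5-4 was raised in library 3 of the control tumors, at 5.90% (Wilson 95% interval 5.40 to 6.45%) or 1.56-fold the highest LN library, and Trav6n-6 in library 1, with 429 of 8575 counts (interval 4.56 to 5.48%) and at most 1.94% in LN. The summed excess over the LN range was 14.2 and 12.2 percentage points in tumors of MHCII-deleted mice and 14.3, 17.1 and 7.90 in tumors of control mice. Each LN library exceeded the other 4 by 1.92 to 5.71 points. These sums cover the 56 Trav segments that passed the filter on low counts. Segments without a copy letter together took 65.6% to 76.4% of Trav counts in tumors and 74.1% to 79.0% in LN.

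**Figure D3:**
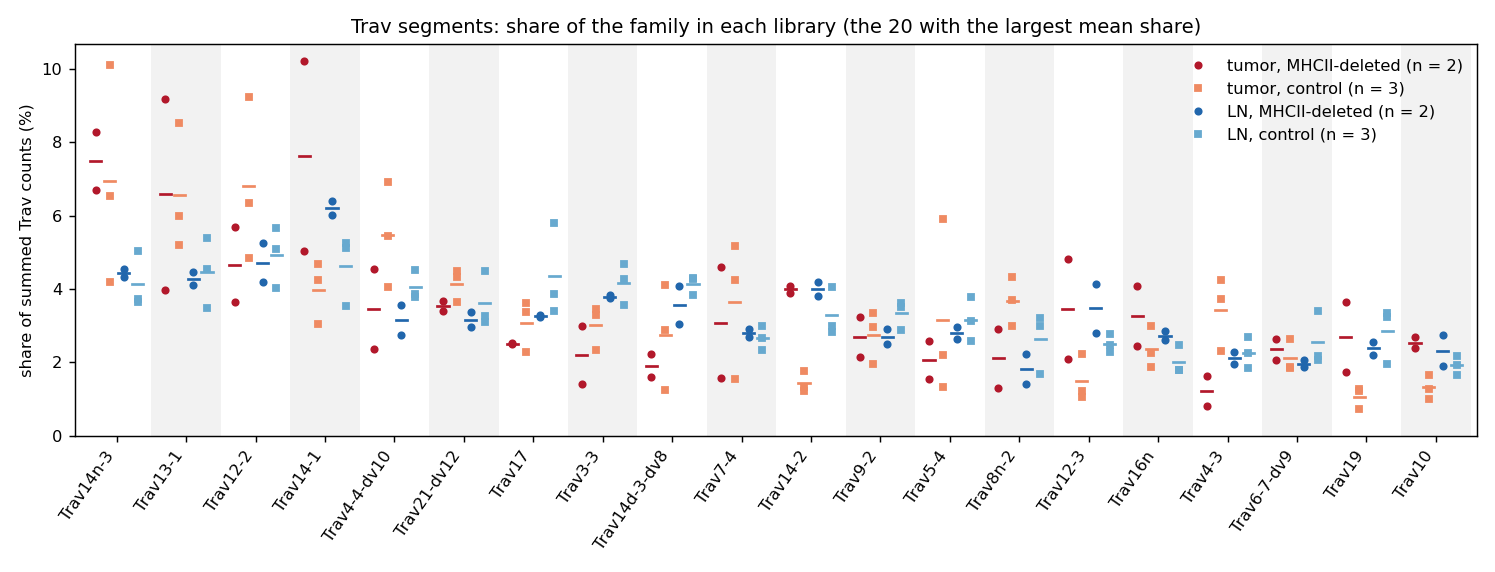
Share of summed Trav counts (y axis, %) of the 20 Trav segments with the largest mean share, with a point for each library and a bar for the group mean. Single tumor libraries reach 10.1% (Trav14n-3), 9.19% (Trav13-1), 9.23% (Trav12-2) and 10.2% (Trav14-1), and no LN library exceeds 6.40%.

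Usage was less even in tumor than in LN in both families. Evenness was measured as the effective number of segments, the exponential of the Shannon entropy of the shares, which equals the number of segments when all have the same share. For Trav it was 36.0 and 35.5 in tumors of MHCII-deleted mice and 35.2, 32.3 and 38.6 in tumors of control mice. In LN it was 41.6 and 41.4 in MHCII-deleted mice and 41.8, 40.7 and 40.2 in control mice. All 5 tumor libraries lay below all 5 LN libraries, and the mean difference was -5.61 segments (exact permutation test within genotypes over 120 arrangements, two-sided p = 0.0167, the smallest it can give, adjusted p = 0.0333 over 4 tests). For Trbv the values were 15.6 and 16.5 in tumors of MHCII-deleted mice and 16.2, 16.0 and 15.3 in tumors of control mice. In LN they were 17.1 and 17.1 in MHCII-deleted mice and 16.8, 17.1 and 16.8 in control mice. Again the tissues did not overlap, with a difference of -1.04 segments (exact permutation test, p = 0.0167, adjusted p = 0.0333). Both calls were lost when same-numbered tumor and LN libraries were taken as pairs, where the exact test cannot reach p under 0.05. The Trav difference was -5.74 in MHCII-deleted mice and -5.52 in control mice, and the Trbv difference was -1.10 and -0.999 in the same genotypes. Thinning every library to the lowest family total (2198 Trav and 9812 Trbv counts) left differences of -5.57 and -0.97, so they were nearly as large at equal counts. Thinning does not equalise the number of cells or molecules behind the counts. The melanoma, stroma and B cell marker sums given above also separate the tissues, and their part in the evenness difference was not tested. When the members of a Trbv subgroup, such as Trbv13-1, Trbv13-2 and Trbv13-3, were summed, the Trbv difference was -0.08 (exact permutation test, p = 0.9), while the Trav difference over subgroups was -0.997 (p = 0.0333).

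The 5 leading segments together show the same measure in shares. They took 31.6% ± 1.71 (SD, n = 2) of Trav counts in tumors of MHCII-deleted mice and 31.3% ± 6.46 (SD, n = 3) in tumors of control mice, against 23.8% ± 0.859 (SD, n = 2) and 24.0% ± 1.29 (SD, n = 3) in LN of the same genotypes. Of Trbv counts they took 49.4% ± 2.78 (SD, n = 2) and 50.2% ± 2.95 (SD, n = 3) in tumors of MHCII-deleted and control mice, against 44.4% ± 0.0263 (SD, n = 2) and 44.7% ± 0.619 (SD, n = 3) in LN. The number of segments detected differed little. After thinning, 54 to 58 Trav segments had a count in tumor libraries and 56 to 58 in LN libraries, and 21 or 22 Trbv segments in tumor and 22 in LN.

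Deletion of MHC class II gave no difference in evenness that passed the test. The effective number was higher by 0.46 Trav segments in MHCII-deleted than in control mice, as a mean over both tissues (exact permutation test within tissues over 100 arrangements, p = 0.67), and by 0.21 Trbv segments (p = 0.41). In tumor alone the differences were 0.35 and 0.16 segments, both smaller than the SD of the tumor libraries of control mice, which was 3.16 for Trav and 0.487 for Trbv. Groups of 2 and 3 libraries in a single tissue cannot reach p below 0.1.

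**Figure D4:**
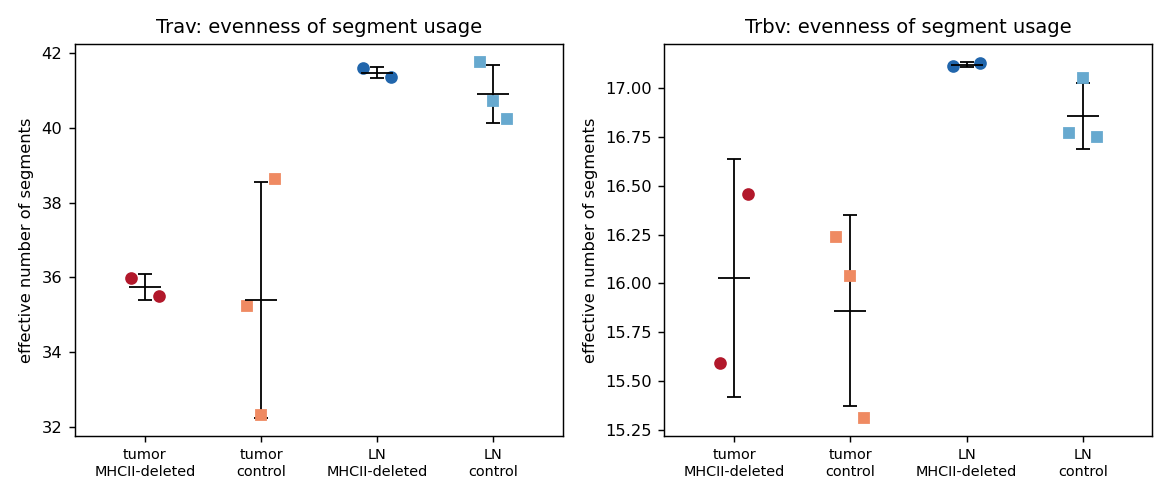
Effective number of Trav (left) and Trbv (right) segments (y axes, which do not start at 0) in each library by group, with the group mean and SD as bars. Every tumor library lies below every LN library, at up to 38.6 against at least 40.2 for Trav and up to 16.5 against at least 16.8 for Trbv.

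Tumor libraries also resembled each other less than LN libraries did. The distance between 2 libraries was taken as the percentage of a family's counts that would have to move to other segments to make the profiles equal. For Trbv it was 16.8% between the MHCII-deleted tumors and 13.4% to 18.7% among the control tumors, against 5.05% between the MHCII-deleted LN libraries and 3.97% to 5.22% among the control LN libraries. For Trav it was 29.5% and 19.8% to 25.8% in tumor, against 9.73% and 11.2% to 13.9% in LN, with the genotypes in the same order. Thinned to equal counts, Trav distances in tumor were still 22.2% to 29.5% and those in LN 11.3% to 16.7%. Between MHCII-deleted and control libraries the Trbv distance was 13.6% to 20.4% in tumor, overlapping with the distances within a genotype. In LN it was 5.44% to 6.60%, above every Trbv distance within a genotype in LN (5.05%, and 3.97% to 5.22%). Thinned to equal counts it was 4.63% to 6.94%, which overlaps with the thinned distances within a genotype (5.61% in MHCII-deleted and 4.35% to 5.32% in control mice). The Trav distance between genotypes in LN (11.4% to 13.7%) overlapped with those within a genotype without thinning. Per segment, the SD over the tumor libraries of control mice exceeded that over the LN libraries of control mice for 21 of 22 Trbv and 38 of 56 Trav segments. The median SD was 0.968 against 0.304 percentage points for Trbv, and 0.482 against 0.267 for Trav. These distances and SDs are given as a description, since libraries enter several of them.

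In the test of single segments for usage, few passed in any comparison. The model was edgeR's quasi-likelihood test on all 13920 tested rows, in which Trav and Trbv rows were scaled to the summed counts of their family, and 56 Trav and 22 Trbv members passed the filter on low counts. Adjusted p-values are by Benjamini-Hochberg over all these rows. Rows other than V segments were tested for level in this fit. Where many of them were called, the threshold for the segments was eased. At an unadjusted p under 0.05 (edgeR) were 1 of 56 Trav and 4 of 22 Trbv members between tissues in MHCII-deleted mice. In control mice they were 3 and 6, and for the deletion in tumor 12 and 5. Between tumor and LN, 4 of 78 members differed in MHCII-deleted mice (44.1% of all tested rows were called) and 3 of 78 in control mice (38.7% of all rows). Between MHCII-deleted and control mice, 6 of 78 differed in tumor (28.4% of all rows) and 0 in LN (1.13% of all rows). The percentages over all rows are nearly all calls of level, so they are no rate of usage change to set the segments against. A fit of only the tumor libraries called 0 members. In the main fit the spread of a row was estimated over all 10 libraries, although usage varied more between tumor than between LN libraries. The 6 tumor calls rest on that shared estimate. In LN there were 0 members at an unadjusted p under 0.05, and DESeq2 and a fit of only the LN libraries called 0. Because the main spread estimate includes the more variable tumor libraries, 0 calls in LN do not show equal usage. The medians of the log2 usage differences over the members lay between -0.22 and 0.04 in these comparisons, as usage within a family sums to a constant.

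Trbv13-3 was used less in tumor in both genotypes. In MHCII-deleted mice it took 2.92% and 3.77% of Trbv counts in tumor, against 5.41% and 5.54% in LN. In control mice it took 3.83%, 2.60% and 4.35% in tumor, against 6.04%, 5.63% and 5.95% in LN. All 5 tumor libraries lay below all 5 LN libraries. The log2 difference in usage was -0.71 ± 0.22 (SE; adjusted p = 0.0274) in MHCII-deleted mice and -0.71 ± 0.18 (adjusted p = 0.0121) in control mice. The call in control mice held without any single library (adjusted p up to 0.0405). That in MHCII-deleted mice was lost without tumor library 1 of these mice (-0.54, adjusted p = 0.146) and without either of their LN libraries (-0.72 and -0.69, adjusted p = 0.0875 and 0.0998). Trbv13-2, whose exon end is printed above it, took 12.7% and 11.3% of counts in tumors of MHCII-deleted mice and averaged 14.8% ± 1.73 (SD, n = 3) in tumors of control mice. It averaged 12.3% ± 0.0365 (SD, n = 2) and 13.6% ± 0.873 (SD, n = 3) in LN of the same genotypes, and did not pass the test between tissues (edgeR adjusted p = 0.82 and 0.424).

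Trbv26 was used more in tumor than in LN of MHCII-deleted mice and Trbv12-1 less. Trbv26 took 4.32% and 3.68% of Trbv counts in tumor, against 2.00% and 2.26% in LN (log2 difference 0.91 ± 0.22, adjusted p = 0.00774, or 0.0655 without LN library 1 of these mice). In control mice it took 2.50%, 2.45% and 3.45% in tumor and 2.13%, 2.45% and 2.52% in LN, and these values overlap. Trbv12-1 took 1.89% and 2.22% in tumor, against 3.27% and 4.41% in LN of MHCII-deleted mice (log2 difference -0.90 ± 0.33, adjusted p = 0.0488). Its call was lost in 8 of 10 omissions of a single library, with adjusted p up to 0.242 without LN library 2, in which Trbv12-1 was highest. In control mice it took 1.55%, 2.54% and 1.15% in tumor and 2.72%, 2.45% and 3.01% in LN, also lower on average but short of the threshold (-0.64, adjusted p = 0.0823). The tissue effects of the genotypes did not differ past the test for either segment (adjusted p = 0.162 for Trbv26 and 0.761 for Trbv12-1).

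Trav14-2 and Trav19 were used less in tumor than in LN of control mice and more in tumors of MHCII-deleted than of control mice. Trav14-2 (53640701 to 53641225) took 4.09% and 3.90% of Trav counts in tumors of MHCII-deleted mice and 1.22%, 1.78% and 1.34% in tumors of control mice. In LN it took 4.19% and 3.81% in MHCII-deleted mice and 2.83%, 3.00% and 4.06% in control mice. The tumors of control mice stood below all other libraries. Its usage rose by 1.46 ± 0.31 (log2 difference ± SE, adjusted p = 0.00685) in tumors of MHCII-deleted against control mice, and fell by 1.19 ± 0.28 (adjusted p = 0.00787) in tumor against LN of control mice. Both comparisons share the tumors of control mice, so the calls are not independent. They held without any single library (adjusted p up to 0.0248 and 0.0367). The first was lost in a fit of only the tumor libraries, at the same size (1.46, adjusted p = 0.0697). Of its windows 54.4% are unique, and its copies printed above were at 0.

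Trav19 (53845234 to 53845827), a segment with all windows unique, took 1.73% and 3.64% in tumors of MHCII-deleted mice and 1.21%, 0.719% and 1.26% in tumors of control mice. In LN it took 2.55% and 2.21% in MHCII-deleted mice and 3.36%, 1.96% and 3.25% in control mice. The log2 difference was -1.42 ± 0.41 (adjusted p = 0.0202) in tumor against LN of control mice. It was 1.34 ± 0.45 (adjusted p = 0.0471) in tumors of MHCII-deleted against control mice. The tissue call was lost without tumor library 2 (-1.20, adjusted p = 0.06) and LN libraries 1 and 3 of control mice (-1.29 and -1.32, adjusted p = 0.0717 and 0.0633), and the deletion call in 9 of 10 omissions, with adjusted p up to 0.37 and a difference of 0.70 without library 2 of the MHCII-deleted tumors. The exons of both segments end as follows (last 60 bases, plus strand of chromosome 14, cysteine codon in capitals).
Trav14-2: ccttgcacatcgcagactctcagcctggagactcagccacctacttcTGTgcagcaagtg
Trav19: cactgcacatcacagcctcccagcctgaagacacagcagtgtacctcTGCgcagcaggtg

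Trbv1, Trav4-3, Trav16 and Trav6d-5 were used less in tumors of MHCII-deleted than of control mice. Trbv1 (chromosome 6, 40891229 to 40891885) took 6.22% and 6.57% of Trbv counts in tumors of MHCII-deleted mice, against 8.04%, 10.1% and 12.2% in tumors of control mice. LN libraries were at 7.28% to 7.92%, between these groups. The log2 difference was -0.66 ± 0.16 (adjusted p = 0.0134). The call failed when library 1 of the MHCII-deleted tumors was omitted (-0.62, adjusted p = 0.0677) and in a fit of only the tumor libraries (-0.66, adjusted p = 0.0761). Trav4-3 took 0.819% and 1.63% of Trav counts in tumors of MHCII-deleted mice, against 2.32%, 4.23% and 3.74% in tumors of control mice (-1.46 ± 0.43, adjusted p = 0.0307). The Trav4-3 call failed on omission of library 1 of the MHCII-deleted tumors (-1.07, adjusted p = 0.156) and without libraries 2 and 3 of the control tumors (-1.28 and -1.40, adjusted p = 0.0779 and 0.0644). Trav16 took 0.728% and 0.466%, against 1.75%, 1.62% and 1.68% (-1.51 ± 0.50, adjusted p = 0.0467), and its call was lost in all 10 omissions of a single library. Summed with its copies Trav16n and Trav16d-dv11, the difference turned to 0.0199 (adjusted p = 0.968), so the lower usage holds only for the counts assigned to Trav16 itself. In these 3 segments the tumor groups did not overlap, but the segments were picked by their calls. How many other members lacked overlap was not counted, so this adds no support.

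Trav6d-5 (52795165 to 52795633) had 0 counts in both tumors of MHCII-deleted mice, out of 6920 Trav counts. It had 28, 24 and 57 counts in tumors of control mice. In LN it had 16 and 24 counts in MHCII-deleted mice and 22, 45 and 34 in control mice. With counts pooled over libraries and a floor of 3 counts, its share in these MHCII-deleted tumors was at least 10.6-fold lower than in these tumors of control mice. Against the pooled LN libraries of MHCII-deleted mice it was at least 5.45-fold lower. These bounds cover counting error only and not the spread between libraries, so they do not bound the share in further animals. The edgeR adjusted p was 0.0103 for the deletion in tumor and 0.0123 for tumor against LN of MHCII-deleted mice. When library 2 of the MHCII-deleted tumors was omitted these were 0.0544 and 0.0650, and in fits of only the groups compared 0.0581 and 0.0583. It was also the only member whose deletion effects in tumor and in LN differed past the test (edgeR adjusted p = 0.0492). That is 1 of 78 members, while 10.7% of all rows, nearly all tested for level, were called. The call was lost in all 10 omissions of a single library. Trav6d-5 shares 37.4% of its windows with Trav6n-5. Its exon ends as follows.
Trav6d-5: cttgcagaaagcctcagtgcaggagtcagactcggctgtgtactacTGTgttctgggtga

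The summed level of V segment RNA, relative to the whole library, was lowest in tumors of MHCII-deleted mice. Summed Trav counts were at 73.9 and 135 CPM (here normalised by the trimmed mean of M-values, TMM) in tumors of MHCII-deleted mice and at 262, 243 and 276 in tumors of control mice. In LN they were at 250.2 and 261 CPM in MHCII-deleted mice and 269, 283 and 280 in control mice. Summed Trbv counts were at 330 and 387 CPM in tumors of MHCII-deleted mice and at 826, 686 and 836 in tumors of control mice. In LN they were at 1266 and 1287 CPM in MHCII-deleted mice and 1278, 1329 and 1372 in control mice. The Trbv sum thus separated all tumor from all LN libraries, while the Trav sum of control tumors overlapped with LN.

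In tumors of MHCII-deleted against control mice the Trav sum fell by 1.32 ± 0.21 (log2 ± SE; edgeR quasi-likelihood, adjusted p = 0.00162) and the Trbv sum by 1.13 ± 0.11 (adjusted p = 0.000212). Of the tested members, 24 of 56 Trav and 13 of 22 Trbv fell and 0 rose (13.7% of all rows were called lower), with medians of -1.46 and -1.06, against 0.10 over all rows. Trac, Trbc1 and Trbc2, the constant genes, fell by 1.26 ± 0.13, 1.25 ± 0.15 and 1.19 ± 0.11 (adjusted p = 0.000259, 0.00043 and 0.00019), and Cd3d, Cd3e, Cd3g and Cd247, the signaling chains of the receptor, by 1.34, 1.27, 1.38 and 1.04 (adjusted p up to 0.00019). Cd4, the coreceptor for MHC class II, fell by 1.06 ± 0.09 (adjusted p = 0.000143). When libraries were scaled to the constant genes instead, the median over all rows was 1.36. On that scale the Trav sum had a difference of -0.11 (adjusted p = 0.56) and the Trbv sum one of 0.12 (adjusted p = 0.369), so its direction turned, and 5 members were higher and 5 lower. The summed melanoma markers averaged 14955 ± 2355 CPM in MHCII-deleted tumors (SD, n = 2), and 4316 ± 1622 CPM in control tumors (SD, n = 3). The part of these transcripts in the lower V segment levels was not tested. In LN the deletion changed neither sum past the test (-0.12 and -0.06, adjusted p = 1.0 for both, with 1.1% of all rows called). It was called for 0 of 78 members, with 0 at an unadjusted p under 0.05 and 0 by DESeq2. The spread estimate includes the tumor libraries here too, so this does not show equal levels.

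Between tumor and LN, beta V segments fell in both genotypes and alpha V segments in MHCII-deleted mice. In MHCII-deleted mice 21 of 56 Trav and 20 of 22 Trbv members fell in tumor (20.1% of all rows were called lower), and the sums fell by 1.29 ± 0.22 (Trav, adjusted p = 0.00105) and 1.83 ± 0.12 (Trbv, adjusted p = 4.0e-06). In control mice 2 of 56 Trav and 13 of 22 Trbv members fell (16.1% of all rows), and 0 rose in either genotype. The Trbv sum of control mice fell by 0.76 ± 0.10 (adjusted p = 0.000225), while the Trav sum had a difference of -0.09 ± 0.18 (adjusted p = 0.709). The melanoma, stroma and B cell marker sums separate the tissues here too, and their part in these level differences was not tested. The constant genes followed the families: in control mice Trbc1 and Trbc2 fell by 0.62 ± 0.13 and 0.76 ± 0.09 (adjusted p = 0.0039 and 0.00019), and Trac had a difference of -0.05 ± 0.11 (adjusted p = 0.761). Of the CD3 chains, Cd247 fell by 0.50 ± 0.07 (adjusted p = 0.000527) in the same comparison, whereas Cd3d, Cd3e and Cd3g had -0.23, -0.13 and 0.12 (adjusted p = 0.102 to 0.349) and Cd4 had 0.21 (adjusted p = 0.0509). With scaling to the summed constant genes the Trbv sum fell by 0.33 (adjusted p = 0.0376) in MHCII-deleted mice and by 0.44 (adjusted p = 0.00707) in control mice. The Trav sum then stood at 0.18 (adjusted p = 0.373) and 0.23 (adjusted p = 0.226) in the same genotypes, so its direction turned. This scale mixes alpha and beta constant genes, and Trbc fell relative to Trac in tumor. The opposite signs of the families thus restate the difference between beta and alpha and are no separate check of the levels.

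The ratio of beta to alpha V counts within a library gives this difference without any scaling between libraries. It was 4.46 and 2.87 in tumors of MHCII-deleted mice and 3.15, 2.82 and 3.03 in tumors of control mice. In LN it was 5.06 and 4.92 in MHCII-deleted mice and 4.75, 4.69 and 4.90 in control mice. All tumor libraries lay below all LN libraries, with a mean log2 difference of -0.60 (exact permutation test within genotypes, two-sided p = 0.0167, the smallest it can give, adjusted p = 0.0333 over 6 tests). With same-numbered libraries taken as pairs this call too was lost, as that exact test cannot reach p under 0.05. The J segments, which lie between V and constant exons in the joined gene, gave Trbj to Traj ratios of 0.872 to 1.08 in tumor and 1.43 to 1.54 in LN (log2 difference -0.62), and the constant genes gave Trbc to Trac ratios of 0.495 to 0.626 in tumor and 0.826 to 0.913 in LN (log2 difference -0.65), both with p = 0.0167 by the same exact test. This ratio was chosen after the data had been seen. The deletion moved none of the 3 ratios past the test (exact permutation test within tissues, p = 0.19, 0.57 and 0.65 for V, J and constant genes).

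**Figure D5:**
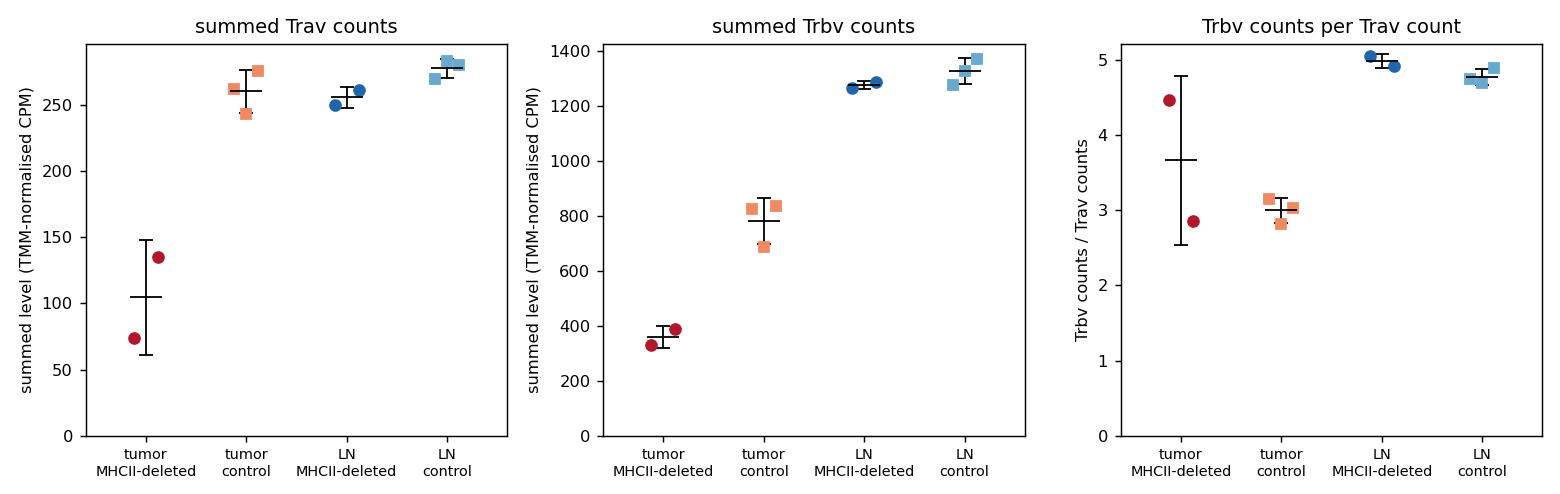
Summed Trav counts (left) and Trbv counts (middle) as TMM-normalised CPM, and Trbv counts per Trav count (right), for each library by group, with the group mean and SD as bars. Both sums are lowest in tumors of MHCII-deleted mice, the Trbv sum of control tumors (686 to 836 CPM) lies below LN (1266 to 1372), and the ratio is at most 4.46 in tumor and at least 4.69 in LN.

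Segments and markers of other T cell kinds were also measured. Trav11, the alpha segment of invariant NKT cells, had 7 counts over all 10 libraries, but it has no unique window because of its copy Trav11d, so its counts are no measure of those cells. Zbtb16, a transcription factor of NKT cells, had 0 to 19 counts per library. Trav1, the alpha segment of MAIT cells, took 0.91% and 3.32% of Trav counts in tumors of MHCII-deleted mice and 0.876% to 1.38% in tumors of control mice, against 1.29% to 2.25% in LN. The second MHCII-deleted tumor was above every LN library, and Trav1 passed the usage test in no comparison. Gamma V segments summed to at most 0.781 CPM in any library, and delta V segments (Trdv) to 1.28 to 5.27 CPM in tumor and 6.31 to 8.86 in LN. The gamma constant genes summed to 0.262 to 1.79 CPM in tumor and 3.99 to 6.41 in LN. Cd8a and Cd8b1, markers of CD8 T cells, summed to 11.8 to 40.1 CPM in all libraries, mostly from Cd8b1 (10.8 to 31.8 CPM). Cd8a alone was at 0 to 1.61 CPM in LN and 0.962 to 13.9 CPM in tumor, highest in library 3 of the control tumors. Genes of receptor rearrangement in immature T cells were at or near 0: Rag1 and Rag2 had 0 counts in every library, which allows up to 0.105 CPM in the shallowest one. Ptcra had 1 count in all and Dntt 3 to 67 counts per library.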

How the data were processed

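The table the authors deposited holds raw read counts for each Ensembl gene and library, not normalized. Per the labels' protocols, amplified cDNA was made with the SMARTer Ultra Low kit, and Nextera XT libraries were sequenced as single reads of 50 bases. Tools named in the submitters' processing notes are featureCounts 1.4.6, STAR 2.4 and CASAVA 1.8.2, with GRCm38 as build. Annotation release, strand setting and treatment of reads that map to several places are not given in the sources used here. The labels' protocol describes tumor digestion only. All 21556 rows were matched to GENCODE M21.

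Counts were tested with edgeR 4.0.16 in R 4.3.3 (filterByExpr on the 4 groups, minimum count 10, 13920 rows, robust quasi-likelihood, all 10 libraries as 4 group means, Benjamini-Hochberg, threshold 0.05). Levels used TMM factors, with the Trav and Trbv sums as further rows. Usage used the log of the family sum as offset. SE is the log2 difference over the square root of F. Evenness and ratios used exact permutation of libraries (Python 3.11.15). The edgeR fits were tested on simulated counts with the same spread in all libraries, which does not cover the unequal spread of tumor and LN seen here. The permutation tests were checked on known answers. Intervals are Wilson 95%, and floors are 3 counts. Alternatives were RLE, DESeq2 1.42.0, no filter, only the groups compared, scaling to constant genes, subgroup sums, other evenness measures, leaving out each library in turn and a replicate block.

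Named members are the 8 leading segments of each family, called segments of each usage comparison (up to 6 per direction by p), Trav11, Trav1 and receptor genes. Members, lists and tests were chosen with earlier results of these data known.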

Additional observations from a re-analysis of the deposited data

Results flagged for a closer look

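The usage of Trav6d-5 differed between the deletion effect in tumor and that in LN, by a test of the difference itself (edgeR quasi-likelihood, adjusted p = 0.0492). It had 0 counts in both tumors of MHCII-deleted mice and 24 to 57 in tumors of control mice, while it had 16 and 24 in LN of MHCII-deleted mice and 22 to 45 in LN of control mice. The adjusted p was 0.0607 to 0.139 when single libraries were left out. No group held enough libraries for a check of single outlying samples.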

How the results depend on the processing

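The count of members called for level in tumors of MHCII-deleted mice (37, all lower) was 10 with scaling to constant genes (5 higher, 5 lower), 24 with the replicate block, 15 with only the groups compared and 16 to 34 without single libraries. For tumor against LN of control mice (15, all lower) it was 7 with that scaling (1 higher, 6 lower) and 9 to 16 without single libraries. For tumor against LN of MHCII-deleted mice (41) it was 8 with that scaling, 27 with only the groups compared and 21 to 46 without single libraries. On that scaling the Trbv sum was at 0.12 for the deletion in tumor and the Trav sum at 0.18 for tumor against LN of MHCII-deleted mice, so both turned. The usage calls for the deletion in tumor (6) were 2 with subgroups summed, 3 with the block, 0 with only the groups compared and 4 to 8 without single libraries. Summed with its copies, Trav16 turned to 0.0199. For tumor against LN of control mice (3) they were 6 with TMM over the segments, 1 with subgroups summed and 2 to 7 without single libraries, and for MHCII-deleted mice (4) 1 with subgroups summed and 1 to 9 without single libraries. The single call for the difference of deletion effects was 0 with DESeq2, no filter, subgroups summed and the block, and 0 to 2 without single libraries. In LN the deletion gave 0 calls of level or usage in all alternatives. The lower tissue evenness kept its direction and p under 0.05 (Trav -6.38 to -4.81, Trbv -1.17 to -0.88 without single libraries), except for Trbv with subgroups summed (-0.0760). With the replicate block, an exact permutation test that swaps tissues within each number and cannot go below p = 0.0625, the tissue values of -5.61, -1.04 and, for the ratio, -0.60 had that p. Without single libraries the evenness difference for the deletion was -0.31 to 1.27 (Trav) and -0.00217 to 0.43 (Trbv), and that of the log2 ratio -0.00166 to 0.318, with p = 0.025 (exact permutation) at the highest, without library 2 of the MHCII-deleted tumors. Same-numbered tumor and LN libraries of control mice had correlated deviations in V usage (r = 0.365, 0.172 and 0.319 over 78 members, each the best match of its tumor library). In MHCII-deleted pairs r was 0.00228, the same value for both pairs, since deviations from the mean of a group of 2 mirror each other. Over all genes the same-numbered pairs of both genotypes had weak positive values (0.0203 to 0.0462). Differently numbered pairs were negative, which follows at least in part from deviations that sum to 0 within each group. The numbers were not taken as pairs in the main tests, and the labels do not settle whether they are. Depth limits low Trav shares: 2198 counts in library 1 of the MHCII-deleted tumors allow a share of up to 0.136% at a count of 0.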
